A study of Homo sapiens with 5 samples.

Results

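The genes described here are 52 kinases, cyclins, kinesins, kinetochore proteins and spindle proteins that act in mitosis, followed across 5 human pancreatic cell lines. They were taken by symbol from a list of genes grouped by role. Each was read on the probe set with the highest mean among those that carry only its symbol, and all 52 were found among 19775 genes. The lines were PANC1, HPAF1, SU86.86 and L3.6, which derive from pancreatic carcinomas, and HPDE, which is generally used as a near-normal duct cell line. The source label calls all 5 pancreatic cancer lines. All were cultured without treatment and measured as total RNA on 1 one-colour Affymetrix array each, so no line has a replicate culture. Lines of the HPDE family are, as background, immortalised with papillomavirus oncogenes and are not resting primary duct cells.

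Mitosis begins when CDK1, bound to cyclin A or B, is switched on by the CDC25 phosphatases. Aurora and Polo kinases then build the spindle, kinesins move and crosslink its microtubules, and kinetochores tie each chromosome to it. The checkpoint proteins hold the cell until every kinetochore is attached, after which CDC20 and the anaphase-promoting complex start chromosome separation. Most of these genes are transcribed late in the cell cycle, under the MuvB complex with MYBL2 and FOXM1, so a culture with many dividing cells usually holds much of their RNA.

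Levels are log2(intensity + 71.1), the constant being the lower quartile of all readings above 0. Differences are given on this log2 scale, which understates the fold change of dim genes. A gene was tested where its highest line reached an intensity of 140, the median of all probe sets, which is 7.72 on the log2 scale. That left 14894 genes, with all 52 mitotic genes among them. Of the 52, 46 were above that level in every line, 5 were below it in HPDE (KIF15, KIF18A, SPC24, SPC25 and DLGAP5), and CDC25A was below it in HPAF1. Array medians lay between 137 and 143, and 16 probe sets for spiked-in bacterial and phage transcripts had a median SD between arrays of 0.09 on the log2 scale. The number of arrays limits the precision of every value. Epithelial markers were above 7.72 for 6 of 6 in every line but PANC1, where KRT7 was below. Leukocyte markers reached that level for 2 of 4 in HPAF1 and 1 of 4 elsewhere, fibroblast markers for 2 to 4 of 6, endothelial and endocrine markers for 1 of 4, and acinar markers for 0 of 3.

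Mitotic genes stood higher in the carcinoma lines than in HPDE. Between the mean of the 4 carcinoma lines and HPDE, 46 of 52 were at least 2-fold higher and 0 were at least 2-fold lower, where 5.57% of all 14894 genes were at least 2-fold higher and 6.48% at least 2-fold lower. The median difference was 1.70, with quartiles of 1.42 and 2.11, and the median over all genes was 0.03. Every carcinoma line was above HPDE for 47 of the 52, against 22.7% of all genes. HPDE was the lowest line and HPAF1 the second lowest for 45, against 6.63% of all genes. In 15 of the 52 every carcinoma line was at least 2-fold above HPDE, against 0.967% of all genes. The 15 were AURKB, TPX2, CDC20, CDK1, CCNB1, CDC25C, KIF18A, KIF20A, CENPM, SPC25, ANLN, ECT2, DLGAP5, MKI67 and UBE2C. This count of 15 rests on the scaling, the probe sets and HPAF1: it was 2 (KIF20A and DLGAP5) with arrays scaled to housekeeping genes, 8 of 36 when shared probe sets (those ending _x_at or _s_at) were dropped, and 47 with HPAF1 left out. In RNA from a whole culture, fewer dividing cells and less of the transcript per dividing cell cannot be told apart.

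In limma, 0 of the 52 passed a Benjamini-Hochberg adjusted p of 0.05 over all genes, as 4 of all 14894 genes did (0.0269%). At an unadjusted p under 0.05, 21 of the 52 were called, all higher in the carcinoma lines, against 2.56% of all genes in that direction. The lowest adjusted p among the 52 was 0.214, for KIF20A. The fit has 3 residual degrees of freedom, takes the 4 carcinoma lines as a single group and assumes that HPDE varies as they do. Its p-values thus set each difference against a spread between different carcinoma lines, to which the 1 HPDE array adds nothing. With HPAF1 left out the median difference of the 52 was 2.07, with PANC1 left out 1.54, with L3.6 left out 1.63 and with SU86.86 left out 1.67. Each of these still rests on 1 HPDE array.

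**Figure D1:**
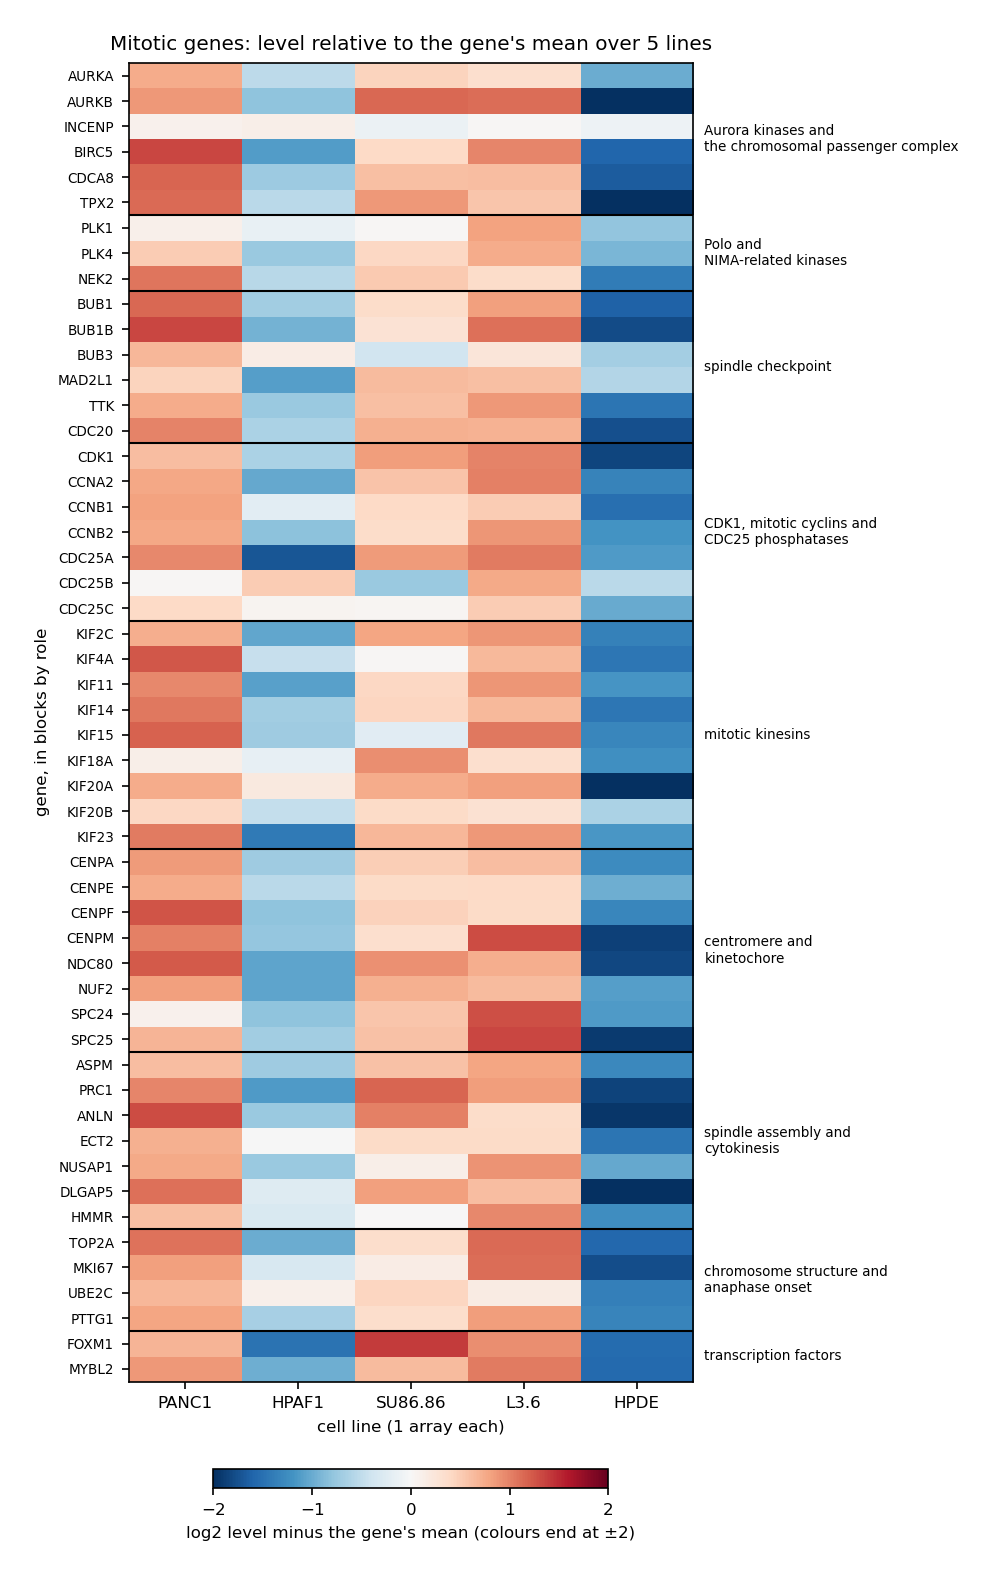
Level of each of the 52 mitotic genes in 5 cell lines (columns, 1 array each), as the log2 level minus that gene's mean over the lines, with genes in blocks by role. HPDE is the lowest line for 47 genes and HPAF1 the second lowest for 45, while the row of INCENP is almost even.

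The scaling of the arrays bears on the size of these differences. Of 11 measured housekeeping genes, 1 was at least 2-fold higher in the carcinoma mean and 0 were 2-fold lower (median 0.30). When each array was instead scaled to the median of that list, HPDE values were multiplied by 1.47 and those of the carcinoma lines by 0.86 to 1.00. The median difference of all genes moved to -0.52. That of the housekeeping genes themselves moved from 0.30, with 9 of 11 above 0, to -0.36, with 2 of 11 above 0. This scale thus did not level the housekeeping genes but turned their median difference the other way. The share of higher among all 2-fold differences was then 8.82%, against 46.2% as deposited. On that scale 33 of the 52 mitotic genes were still at least 2-fold higher in the carcinoma mean, 0 were lower, and their median was 1.13, where 2.06% of all 15806 genes then tested were higher and 21.3% lower. The number above HPDE in every carcinoma line was then 27, against 2.57% of all genes. The ratio of 3' to 5' control probe sets for beta-actin was 1.02 to 1.22 in the carcinoma lines and 1.35 in HPDE, and for GAPDH 1.02 to 1.04 in the carcinoma lines and 1.02 in HPDE. The part of either in the result was not tested.

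The promoters of these genes hold sequences that the choice of the 52 did not use. RefSeq promoter windows on GRCh38.p14, from 250 bases before to 50 after a start site, were at hand for 44 of the 52 genes. The core of the cell cycle homology element, through which the MuvB complex binds late cell cycle genes, was searched as TTTGAA or TTTAAA on either strand. It was present in 37 of the 44 genes (84.1%), against 27.9% of 27305 genes with a window and 22.1% of the 11885 of these that passed the level filter. The CCAAT box, bound by NF-Y, was present on either strand in 36 of the 44 (81.8%), against 39.7% and 42.4%. Both were present in 28 (63.6%), against 11.2% and 9.16%. In 22 of the 44 genes (50%) the first motif lay wholly between -60 and -1 of a start, against 6.37% and 4.76%. No match to it was found in the windows of AURKB, NEK2, BUB1, CCNA2, CDC25A, SPC24 and MYBL2, which says only that these letters are not there. A match is a description of the sequence and not evidence of binding.

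The 150 bases before a start are shown for the 3 genes of widest range over the lines that had a window, with matches to either motif in capitals. AURKB (chr17:8210226-8210375, minus strand) has none in this stretch, DLGAP5 (chr14:55191586-55191735, minus strand) has 2 of each motif, and KIF20A (chr5:138178962-138179111, plus strand) has TTTAAA near its start and 2 reversed CCAAT boxes further off.
AURKB: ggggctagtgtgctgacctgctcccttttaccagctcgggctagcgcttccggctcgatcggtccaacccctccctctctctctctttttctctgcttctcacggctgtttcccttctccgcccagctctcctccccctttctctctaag
DLGAP5: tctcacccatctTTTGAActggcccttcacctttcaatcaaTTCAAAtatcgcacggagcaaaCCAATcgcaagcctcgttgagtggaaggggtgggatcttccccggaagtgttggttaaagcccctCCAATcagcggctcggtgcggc
KIF20A: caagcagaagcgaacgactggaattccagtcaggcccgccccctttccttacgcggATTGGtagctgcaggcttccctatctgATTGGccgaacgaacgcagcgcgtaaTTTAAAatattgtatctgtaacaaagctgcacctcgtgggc

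For each role but the transcription factors and the kinesins, 30 bases around a match between -60 and -1 are shown so that the flanks can be compared, with the match in capitals. Each gene is the one of widest range in its role that has such a match, and INCENP was added, after its values were seen, for its narrow range. They are CDCA8 (chr1:37692481-37692510, plus), PLK1 (chr16:23678848-23678877, plus), BUB1B (chr15:40161034-40161063, plus), CDK1 (chr10:60778448-60778477, plus), CENPA (chr2:26785987-26786016, plus), ANLN (chr7:36389824-36389853, plus), MKI67 (chr10:128126453-128126482, minus) and INCENP (chr11:62123981-62124010, plus). INCENP holds the motif, and its level spans 0.23 over the 5 lines.
CDCA8: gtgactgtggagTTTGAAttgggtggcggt
PLK1: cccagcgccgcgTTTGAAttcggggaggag
BUB1B: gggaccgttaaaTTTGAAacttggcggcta
CDK1: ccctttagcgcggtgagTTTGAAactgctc
CENPA: ctggattcgggtTTTAAAaaacgccggccg
ANLN: tcggcgctgaaaTTCAAATTTGAAcggctg
MKI67: ttagcgccagaaTTTGAAtcttcgttttcg
INCENP: ggattggctgagccttcagtTTTGAAaatc

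**Figure D2:**
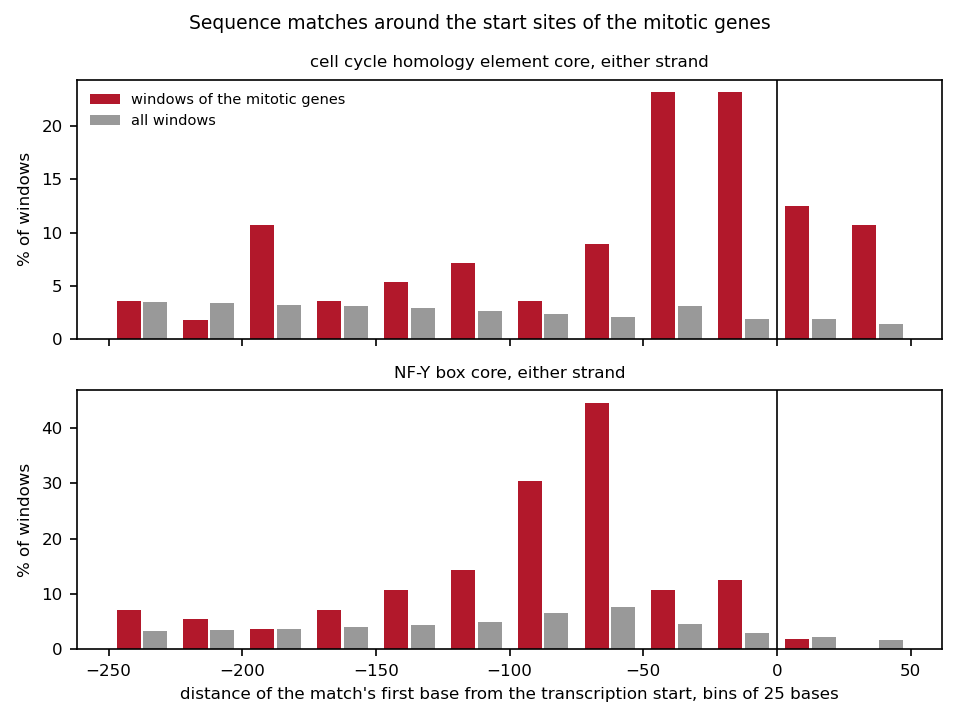
Share of promoter windows with a match to the cell cycle homology element core (upper panel) or the NF-Y box core (lower panel), by distance from the start in bins of 25 bases, for 56 windows of 44 mitotic genes (red) and all 35116 windows (grey). The first is most frequent in the mitotic windows in the last 50 bases before the start (23.2% in each of 2 bins) and the second between -75 and -51 (44.6%).

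Set against HPDE one at a time, PANC1, L3.6 and SU86.86 gave similar counts and HPAF1 gave a smaller one. In PANC1 49 of the 52 were at least 2-fold above HPDE, with a median difference of 2.20, against 8.47% of all genes. In L3.6 it was again 49, with a median of 2.17, against 6.55% of all genes. In SU86.86 it was 48, with a median of 1.88, against 8.44%. In HPAF1 it was 16, with a median of 0.71, against 7.77%. None of the 52 was 2-fold below HPDE in any carcinoma line, against 8.59% of all genes in L3.6, 9.26% in PANC1, 7.72% in SU86.86 and 9.27% in HPAF1. Each of these differences has 1 array on either side and no replicate check, and all 4 share the HPDE array. In HPAF1 49 of the 52 were above HPDE by any amount, where the median difference of all genes was 0.02. The share of all genes above HPDE in HPAF1 was not counted. On the housekeeping scale 29 of the 52 were above HPDE in HPAF1, with a median of 0.14. The carcinoma mean over all genes had a median difference of -0.52 on the housekeeping scale. The HPAF1 count of 16 at 2-fold was 2 on that scale, and 8 of 36 when probe sets that can match several transcripts were left out. The shares of all genes for HPAF1 in these settings were not counted, so whether these counts exceed them is not known.

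**Figure D3:**
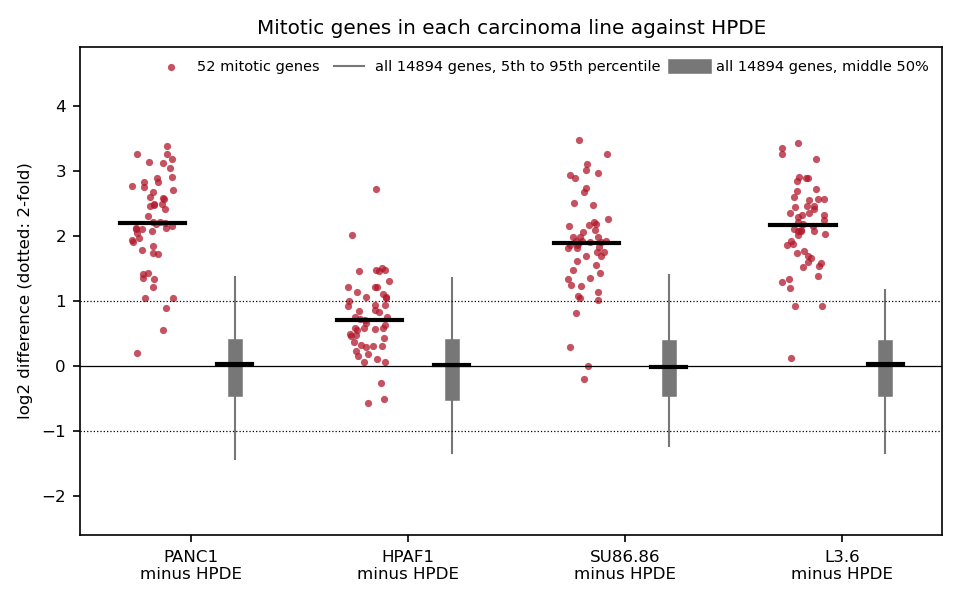
Difference of each carcinoma line from HPDE on the log2 scale, for the 52 mitotic genes (red points, bar at the median) and for all 14894 genes (grey box and line for the percentiles named in the legend, bar at the median), with dotted lines at 2-fold. The medians of the mitotic genes are 2.17 in L3.6, 2.20 in PANC1, 1.88 in SU86.86 and 0.71 in HPAF1, and those of all genes lie near 0.

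Of the 6 genes of the Aurora kinases and the passenger complex, 5 were at least 2-fold higher in the carcinoma mean and INCENP was level. AURKB, the kinase of the chromosomal passenger complex, stood at 11.70 in L3.6, 11.45 in PANC1, 11.73 in SU86.86 and 9.78 in HPAF1, against 8.27 in HPDE. All 4 carcinoma lines lay above HPDE, and HPAF1 lay well below the other 3. Its promoter stretch, printed above, holds neither motif, but a reversed CCAAT box spans its upstream edge, at -153 of that start and -129 of the other RefSeq start. The difference of the means was 2.90 (SE 0.85, limma adjusted p = 0.502). TPX2, which activates Aurora A on spindle microtubules, stood at 12.20 in L3.6, 12.77 in PANC1, 12.51 in SU86.86 and 11.10 in HPAF1, against 9.63 in HPDE. HPAF1 again lay between HPDE and the other 3, of which PANC1 was highest. The carcinoma mean was higher by 2.52 (SE 0.68, limma adjusted p = 0.475). The passenger subunits BIRC5 (survivin) and CDCA8 (borealin) were higher in the carcinoma mean by 1.97 and 2.08, and AURKA by 1.24. INCENP, the scaffold that binds AURKB, stood at 7.95 in L3.6, 8.02 in PANC1, 7.82 in SU86.86 and 8.05 in HPAF1, against 7.83 in HPDE. It had the smallest range of the 52, 0.23, close to the level of the filter in every line, and on the housekeeping scale its difference changed sign. INCENP was read on 1 probe set.

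Of the other mitotic kinases, NEK2, which helps part the centrosomes, stood at 9.99 in L3.6, 10.70 in PANC1, 10.15 in SU86.86 and 9.08 in HPAF1, against 8.23 in HPDE. HPDE was lowest and HPAF1 next. PLK4, which starts centriole duplication, was higher in the carcinoma mean by 1.15. PLK1, the Polo kinase of mitotic entry, differed less, at 10.77 in L3.6, 10.06 in PANC1, 9.98 in SU86.86 and 9.81 in HPAF1, against 9.18 in HPDE. Its carcinoma lines did not overlap HPDE, and only L3.6 was more than 2-fold above it.

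The spindle checkpoint genes split into those with wide and those with narrow differences. BUB1B, which encodes BUBR1 and restrains CDC20, stood at 11.62 in L3.6, 11.85 in PANC1, 10.81 in SU86.86 and 9.58 in HPAF1, against 8.72 in HPDE. The kinase BUB1, which gathers checkpoint proteins at kinetochores, stood at 10.45 in L3.6, 10.77 in PANC1, 9.99 in SU86.86 and 8.92 in HPAF1, against 8.0 in HPDE. For both, HPDE was lowest and PANC1 highest, with differences of 2.24 (SE 0.93, limma adjusted p = 0.639) and 2.03 (SE 0.74, limma adjusted p = 0.593). The checkpoint kinase TTK was higher in the carcinoma mean by 1.82 and CDC20 by 2.20. BUB3, a partner of BUB1 and BUBR1, stood at 12.31 in L3.6, 12.74 in PANC1, 11.69 in SU86.86 and 12.23 in HPAF1, against 11.40 in HPDE. On this probe set SU86.86 was nearest to HPDE. On 2 of the 3 other probe sets of BUB3 above the filter HPAF1 was the lowest of the 5 lines, at 10.28 against 10.61 in HPDE and at 10.64 against 10.96 in HPDE, so the place of HPAF1 for BUB3 is not settled. MAD2L1, which encodes the inhibitor MAD2, stood at 11.66 in L3.6, 11.50 in PANC1, 11.70 in SU86.86 and 9.96 in HPAF1, against 10.47 in HPDE. Here HPAF1 lay below HPDE, so the groups overlapped.

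CDK1, the kinase that drives mitotic entry, stood at 12.01 in L3.6, 11.64 in PANC1, 11.86 in SU86.86 and 10.39 in HPAF1, against 9.18 in HPDE. The carcinoma lines were all at least 2-fold above HPDE, by 2.29 in the mean (SE 0.68, limma adjusted p = 0.511). Its cyclins were higher in the carcinoma mean by 1.66 for CCNA2, 1.88 for CCNB1 and 1.49 for CCNB2. The 3 CDC25 phosphatases, which remove inhibitory phosphates from cyclin-dependent kinases, did not follow one pattern. CDC25A stood at 10.20 in L3.6, 10.11 in PANC1, 10.00 in SU86.86 and 7.45 in HPAF1, against 8.02 in HPDE. HPAF1 was the lowest line, at a level below the filter, and the groups overlapped. On another probe set of CDC25A HPAF1 was not low, at 8.55 against 8.76 in L3.6, 8.65 in PANC1 and 8.48 in SU86.86. On the remaining probe set HPAF1 was again lowest, at 6.81, against 8.40 in L3.6, 8.44 in PANC1, 7.95 in SU86.86 and 7.16 in HPDE. The readings of HPAF1 and HPDE on it were below the filter. CDC25B stood at 11.69 in L3.6, 10.95 in PANC1, 10.19 in SU86.86 and 11.44 in HPAF1, against 10.40 in HPDE. SU86.86 was the lowest line, and for CDC25B HPAF1 was above both PANC1 and SU86.86. CDC25C was higher than HPDE in every carcinoma line, by 1.26 in the mean, and HPAF1 and SU86.86 lay close together.

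The widest difference of the 52 was that of KIF20A, the kinesin that carries the passenger complex to the midzone of the spindle. KIF20A stood at 11.10 in L3.6, 11.02 in PANC1, 11.02 in SU86.86 and 10.48 in HPAF1, against 7.76 in HPDE, where it was barely above the filter. PANC1, SU86.86 and L3.6 lay close together, HPAF1 stood lower, and all 4 were far above HPDE. The carcinoma mean was 10.90 ± 0.29 (SD, n = 4) and its difference from HPDE was 3.14 (SE 0.31). KIF4A, a chromosome-bound kinesin, stood at 10.35 in L3.6, 10.94 in PANC1, 9.72 in SU86.86 and 9.24 in HPAF1, against 8.25 in HPDE. Its carcinoma lines were spread more widely, all above HPDE. KIF23, which bundles microtubules at the midbody, stood at 10.33 in L3.6, 10.51 in PANC1, 10.12 in SU86.86 and 8.04 in HPAF1, against 8.30 in HPDE. As with CDC25A and MAD2L1, HPAF1 was the lowest line. KIF11, the motor that pushes spindle poles apart, and KIF2C, which depolymerises microtubule ends, were higher in the carcinoma mean by 1.48 and 1.69. KIF20B stood at 9.28 in L3.6, 9.40 in PANC1, 9.36 in SU86.86 and 8.51 in HPAF1, against 8.36 in HPDE, a difference of less than 2-fold, with HPAF1 and HPDE close together.

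All 8 centromere and kinetochore genes were at least 2-fold higher in the carcinoma mean, by 1.22 to 2.39. SPC25, a subunit of the NDC80 complex that grips microtubules, stood at 10.59 in L3.6, 9.94 in PANC1, 9.85 in SU86.86 and 8.55 in HPAF1, against 7.34 in HPDE. CENPM, a member of the inner centromere network, stood at 11.15 in L3.6, 10.85 in PANC1, 10.18 in SU86.86 and 9.07 in HPAF1, against 7.97 in HPDE. L3.6 was highest and HPDE lowest for both, and the reading of SPC25 in HPDE was below the filter. The other subunits of the NDC80 complex were higher by 2.27 for NDC80, 1.39 for NUF2 and 1.41 for SPC24. The histone variant CENPA, which marks the centromere, was higher by 1.57.

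The 7 genes of spindle assembly and cytokinesis were also all at least 2-fold higher in the carcinoma mean. DLGAP5, which stabilises spindle microtubules, stood at 10.58 in L3.6, 11.06 in PANC1, 10.79 in SU86.86 and 9.70 in HPAF1, against 7.68 in HPDE. ANLN, the anillin of the contractile ring, stood at 11.49 in L3.6, 12.43 in PANC1, 12.14 in SU86.86 and 10.38 in HPAF1, against 9.18 in HPDE. PANC1 was highest for both, and every carcinoma line was above HPDE, where the reading of DLGAP5 was below the filter and its size is therefore uncertain. The differences were 2.85 for DLGAP5 (SE 0.55, limma adjusted p = 0.363) and 2.44 for ANLN (SE 0.83, limma adjusted p = 0.572). ECT2, the exchange factor that activates RhoA for cytokinesis, was higher by 1.83, and PRC1, which crosslinks midzone microtubules, by 2.31.

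MKI67, the source of the Ki-67 antigen that coats mitotic chromosomes, stood at 10.84 in L3.6, 10.53 in PANC1, 9.87 in SU86.86 and 9.40 in HPAF1, against 7.95 in HPDE. TOP2A, which untangles sister chromatids, stood at 12.19 in L3.6, 12.14 in PANC1, 11.40 in SU86.86 and 10.05 in HPAF1, against 9.48 in HPDE. Both were lowest in HPDE and highest in L3.6, with differences of 2.21 (SE 0.60, limma adjusted p = 0.482) and 1.97 (SE 0.91, limma adjusted p = 0.682). UBE2C, the ubiquitin-conjugating enzyme of the anaphase-promoting complex, and PTTG1, the securin that it helps destroy, were higher by 1.72 and 1.65. The probe set of PTTG1 is of a kind that can match near-identical copies, as are those of BUB3, CENPA and FOXM1, so these 4 are less certain. FOXM1, a transcription factor of late cell cycle genes, stood at 10.97 in L3.6, 10.72 in PANC1, 11.45 in SU86.86 and 8.57 in HPAF1, against 8.51 in HPDE. HPAF1 and HPDE were almost level, and the other 3 lines lay more than 2-fold above both. MYBL2, which binds the MuvB complex, was higher in the carcinoma mean by 1.94.

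Within the carcinoma lines HPAF1 was low. Against the mean of PANC1, SU86.86 and L3.6, 40 of the 52 were at least 2-fold lower in HPAF1 and 0 were at least 2-fold higher, against 7.26% and 7.63% of all genes. The median difference was -1.42, and the median of all genes was 0.00. HPAF1 lay below each of the other 3 for 48 of the 52, against 28.9% of all genes, and was at least 2-fold below the lowest of them for 31. In 31 of the 52 the other 3 lines were each at least 2-fold above both HPAF1 and HPDE, against 1.09% of all genes. FOXM1 differed by -2.48 and KIF23 by -2.28. CDC25A differed by -2.66, with an HPAF1 reading below the filter. On another of its probe sets HPAF1 was not low, and on the remaining probe set it was again the lowest line. A limma fit of the 4 carcinoma lines alone has 2 residual degrees of freedom, takes its spread from the other 3 lines and assumes that HPAF1 varies as they do, and HPAF1 was known to be low when it was described. In that fit 39 of the 52 were lower in HPAF1 at an unadjusted p under 0.05, against 6.91% of all genes in that direction, and 0 were higher, against 6.46%. After adjustment 0 of the 52 passed and 0 of all genes did (0%), the lowest limma adjusted p of the 52 being 0.103. The count of 40 was the same on the housekeeping scale. Of 6 epithelial markers, 5 were at least 2-fold higher in HPAF1 than in the mean of the other 3 carcinoma lines and 0 lower. PANC1 was the lowest of the 4 carcinoma lines for each of the 6. SU86.86 lay nearer to HPAF1, with KRT7 at 13.62 against 13.34 in HPAF1, CDH1 at 12.73 against 12.90 and KRT19 at 13.52 against 14.32. The part of these marker levels in the result was not tested.

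HPAF1 was not evenly low across the 52. Its place on the way from HPDE to the mean of PANC1, SU86.86 and L3.6 was computed for the 48 genes in which that mean was at least 2-fold above HPDE. With values as deposited the median place was 32.1% of the way, and the places ran from -43.6% for MAD2L1 to 82.7% for KIF20A. In 11 genes HPAF1 was past the midpoint, and in 17 it had come less than 25% of the way. Next to KIF20A at the upper end were UBE2C at 82.6%, CDC25C at 80.3%, ECT2 at 74.3%, DLGAP5 at 64.5% and CCNB1 at 62.7%. At the lower end were FOXM1 at 2.19%, NUF2 at 3.09%, KIF11 at 5.33% and PLK4 at 12.1%, with KIF23 and CDC25A below HPDE. By role the median place was highest for the genes of chromosome structure and anaphase onset, at 46.1%, and lowest for the transcription factors, with FOXM1 at 2.19% and MYBL2 at 23.8%. Each place rests on 1 HPAF1 array and 1 HPDE array and was not tested, and those of KIF15, KIF18A, SPC24, SPC25, DLGAP5 and CDC25A use a reading below the filter.

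**Figure D4:**
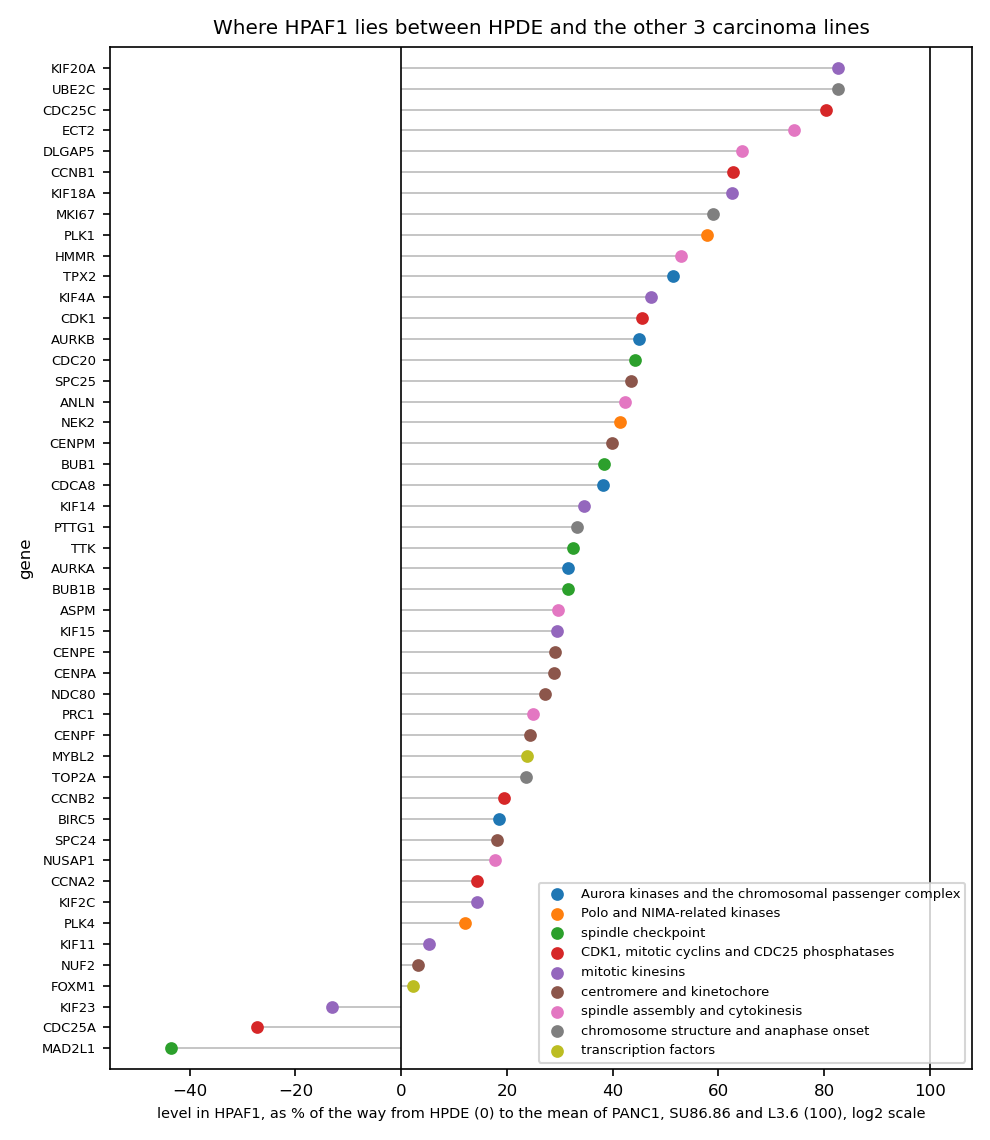
Level of 48 mitotic genes in HPAF1, placed on a line from HPDE (0%) to the mean of PANC1, SU86.86 and L3.6 (right-hand line) on the log2 scale, with colours for roles. KIF20A, UBE2C and CDC25C lie past 80%, and KIF23, CDC25A and MAD2L1 lie below 0%.

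PANC1, SU86.86 and L3.6 lay within 2-fold of one another for 46 of the 52 (88.5%), not far above the 79.6% of all genes. The median range between these 3 lines was 0.50, and over all 5 lines it was 2.44. A range over fewer lines cannot be the larger, and the ranges of all genes were not computed. PANC1 was the highest line for 25 genes, L3.6 for 21, SU86.86 for 5 and HPAF1 for 1, and HPDE for 0. The highest line was not counted over all genes. Against the other 3 carcinoma lines, 8 genes were at least 2-fold higher in PANC1, among them CENPF (1.25) and BIRC5 (1.24), against 5.2% of all genes, and 0 were lower, against 5.59%. The count of 8 was 13 with no added constant and 16 on the housekeeping scale. In L3.6 there were 4 (CDC25A, CENPM, SPC24 and SPC25), against 2.82% of all genes, and 0 lower, against 5.23%. In SU86.86 FOXM1 was higher by 1.36, against 5.47% of all genes, and CDC25B was lower (-1.17), against 2.47%. HPAF1 is one of the other 3 in each of these contrasts. In limma 0 of the 52 and 0 of all genes (0%) passed adjustment in these 3 contrasts. At an unadjusted p under 0.05, 0 of the 52 were higher in PANC1 (3.2% of all genes) and 0 lower (2.52%). In L3.6 1 was higher (1.9%) and 0 were lower (1.93%), and in SU86.86 0 were higher (2.65%) and 1 was lower (1.28%).

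Further probe sets of the same genes that reached the level of the filter gave the same direction. The 52 genes had 92 probe sets that reached it in some line, including the 52 already used. All 92 were higher in the carcinoma mean than in HPDE, 71 of them at least 2-fold. Of the 25 genes with several such probe sets, 14 were at least 2-fold higher on each one. The widest disagreement was for AURKB, at 2.90 on the probe set used and 0.39 on the other. For TOP2A the lowest of 3 was 0.24, for BUB1 it was 0.26, and for CDC25C it was 0.11. Because 1 line sufficed to pass the filter, some probe sets passed on a carcinoma line while HPDE was below the level. Probe sets below the level in every line were left out, and for CCNB2 and CENPF these include some that were not higher. The share of all probe sets on the array that were higher was not counted. Probe sets of 1 gene share the RNA of 1 culture and are not replicates.

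Other lists of the same machinery were less uniform. None of the genes in them passed limma after adjustment. Of 20 genes of condensin and cohesin, 7 were at least 2-fold higher in the carcinoma mean and 0 lower, the median being 0.82, beside 5.57% and 6.48% of all genes. The cohesin protector CDCA5 (sororin) stood at 11.44 in L3.6, 11.58 in PANC1, 11.22 in SU86.86 and 9.42 in HPAF1, against 8.82 in HPDE. The condensin subunit NCAPG was higher by 2.01. Of 27 other centromere and kinetochore genes, 12 were at least 2-fold higher and 1 lower, with a median of 0.56. HJURP, the chaperone that loads CENPA, was higher by 2.45 and CENPI, an inner kinetochore protein, by 1.84. The reading of CENPI in HPDE (7.30) was below the filter. Of 24 centrosome and spindle microtubule genes, 8 were higher and 0 lower, with a median of 0.37, and the widest were CEP55, a midbody protein, by 2.22 and TACC3, a spindle microtubule protein, by 2.05. Of 12 genes of mitotic entry and exit, only TRIP13, which recycles MAD2, was at least 2-fold higher, by 2.88, and WEE1, the kinase that inhibits CDK1, differed by 0.18.

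The anaphase-promoting complex, the transport kinesins and the MuvB, RB and E2F regulators had medians near that of all genes. Of 16 genes of the complex and its regulators, 3 were at least 2-fold higher in the carcinoma mean and 2 lower, with a median difference of -0.09. Its inhibitor FBXO5 and its ubiquitin-chain enzyme UBE2S were higher by 1.47 and 1.26. Of 23 transport kinesins and kinesin light chains, 0 were at least 2-fold higher and 1, KIF13A, was lower (-1.68), with a median of 0.00, where 8 of the 9 mitotic kinesins were at least 2-fold higher. KIF13B, with the widest range of the list, was 10.48 in HPAF1, 9.18 in L3.6, 7.63 in PANC1 and 8.43 in SU86.86, against 8.42 in HPDE. Of 19 genes of the MuvB, RB and E2F regulators, 1 was at least 2-fold higher and 2 lower, with a median of -0.15. The repressor E2F8 was higher by 2.21, with its readings in HPDE (6.61) and HPAF1 (7.14) below the filter. CDKN1A, which encodes the CDK inhibitor p21, stood at 9.37 in L3.6, 10.42 in PANC1, 11.60 in SU86.86 and 11.97 in HPAF1, against 12.92 in HPDE, a difference of -2.08 (SE 1.07, limma adjusted p = 0.718). CDKN1A was thus highest in HPDE and next highest in HPAF1. On the housekeeping scale the median of the condensin and cohesin list was 0.20, and those of the other centromere and kinetochore, the centrosome and the mitotic entry and exit lists turned negative, at -0.11, -0.23 and -0.17, with all genes at -0.52.

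**Figure D5:**
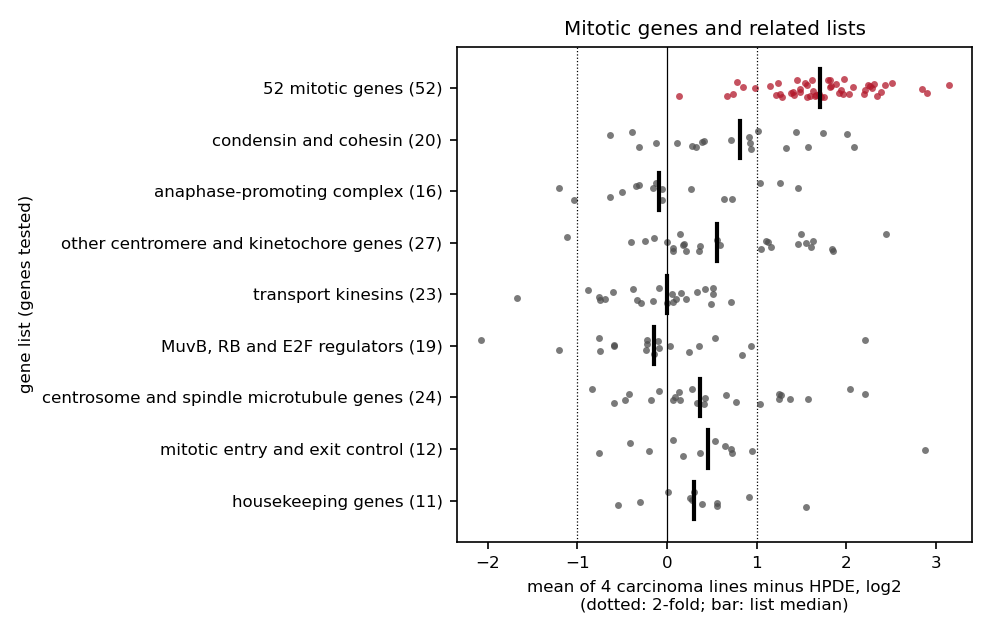
Difference of the mean of the 4 carcinoma lines from HPDE, on the log2 scale, for the 52 mitotic genes (red) and for the genes of 8 other lists (grey), 1 point per gene and a bar at each median. The median is 1.70 for the mitotic genes, 0.82 for condensin and cohesin and 0.00 for the transport kinesins.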

How the data were processed

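The values are linear intensities for 54675 probe sets, 1 column per line, as deposited. The authors' summarisation and scaling of them are not stated in the labels. Per the labels' protocols, RNA was labelled with biotin by a one-cycle Affymetrix kit. Values were used as deposited and transformed to log2 after adding a constant. The 62 control probe sets were left out. Of the rest, 41091 carried 1 symbol, 1801 several and 11777 were not listed. Symbols were updated by gene identifier through a RefSeq table for GRCh38.p14 (41037 matched, 54 kept the older symbol). Comparisons used limma 3.58.1 in R 4.3.3, two-sided, with Benjamini-Hochberg adjustment over the 14894 genes retained, and tables were made with Python 3.11.15. The fit was tested on simulated data. Differences with 1 array on either side were described by size. The mitotic genes and all lists were chosen with earlier results of these data known. Genes given line by line were the 2 of widest range in each role (1 in small roles), those not lowest in HPDE, and those within 2-fold. From each other list the 2 of widest range were named, housekeeping genes apart. Any other gene named was chosen after its values were seen, as were the place of HPAF1 and the printed sequences. Alternatives covered the constant, the filter, the scaling, the probe set and the lines included. A planned search of protein sequences was not run.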

Additional observations from a re-analysis of the deposited data

Results flagged for a closer look

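In 11 of the 52 mitotic genes, HPAF1 lay far from the other 3 carcinoma lines by Dixon's criterion for 4 values. Each time HPAF1 was the lowest of the 4 carcinoma lines. Its level was 9.78 for AURKB, 9.96 for MAD2L1, 9.04 for TTK, 7.45 for CDC25A, 9.40 for KIF2C and 10.48 for KIF20A. It was 8.51 for KIF20B, 8.04 for KIF23, 8.13 for NUF2, 8.82 for ASPM and 9.88 for PRC1. Chance flags about 5% of such groups, and genes read on the same 4 arrays are not independent of each other. The criterion was applied to the 52 only, so the share of all genes flagged on these arrays is not known. HPAF1 lay below the other 3 carcinoma lines for 28.9% of all genes. The reading of CDC25A in HPAF1 is below the level filter. The cause was not tested.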

How the results depend on the processing

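The count of mitotic genes at least 2-fold higher in the carcinoma mean, 46, was between 32 and 47 under the other constants, filters, scalings and probe sets, the 32 being of 36 genes that remained without probe sets ending _x_at or _s_at. The stricter filter tested 51 of the 52. With 1 carcinoma line left out the count was 45 to 48 and the median 1.54 to 2.07. No mitotic gene passed adjustment in any setting, the lowest adjusted p being 0.0758 on the housekeeping scale and 0.536 at most, without PANC1. Of 607 differences for single genes, 606 kept their sign, and INCENP was -0.36 on the housekeeping scale. The count above HPDE in every carcinoma line was 27 on the housekeeping scale and 31 of 36 without the shared probe sets. For HPAF1 minus HPDE the count was 2 and 8 in those settings. The count at least 2-fold above HPDE in every carcinoma line, 15, was also 2 and 8 there, and 15 to 47 with 1 line left out, the 47 being without HPAF1. PANC1 against the other 3 carcinoma lines gave 13 with no constant and 16 on the housekeeping scale, and SU86.86 gave 0 without the shared probe sets. With HPDE added to the other lines, 25 were higher in PANC1, 26 in L3.6 and 10 in SU86.86, and 18 were lower in HPAF1, since HPDE lowers the mean they are set against. No paired analysis was possible because each line has 1 array.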
